A study of Mus musculus with 9 samples.

Results

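The genes described here encode the subunits of the mitochondrial respiratory chain and of ATP synthase, measured by RNA-seq in the sciatic nerves of mice that lack TDP-43 in myelinating glia. Members were taken by symbol, from the gene names that start with mt-Nd, mt-Co, mt-Cytb, mt-Atp, Ndufa, Ndufb, Ndufc, Ndufs, Ndufv, Uqcr, Cox4 to Cox8, Atp5 and from Sdha to Sdhd, without the Ndufaf assembly factors and without pseudogenes marked -ps. This gave 103 of the 36121 genes of the table. Of these, 97 averaged 1 or more across the 9 mice, among 15014 genes that did so, and 6 nuclear entries did not (Ndufa11b, Ndufs6b, Cox6c2, Cox7b2, Cox8c and a second Atp5o entry). The 97 members are the 13 protein-coding genes of the mitochondrial genome and 84 genes of the nucleus.

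The respiratory chain is built from the products of both genomes. Complexes I, III and IV pump protons across the inner mitochondrial membrane as electrons pass to oxygen, complex II feeds electrons in from the tricarboxylic acid cycle, and complex V (ATP synthase) uses the proton gradient to make ATP. Complex II is encoded by nuclear genes alone. The genes of the mitochondrial genome are copied as long transcripts from both strands and cut at the tRNAs between them, so that neighbouring messages start out in equal number and their levels then depend on processing and decay. Nuclear subunits are transcribed one by one, and many of their promoters are known targets of the factors NRF1 and GABP (NRF2). Myelinated nerve relies on this chain in the axon and in the Schwann cell.

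RNA was taken from 9 C57BL6 mice aged 21 days, 2 females and 1 male in each group. Grouped by title, the 3 control mice carried floxed Tardbp and no Cre, the 3 cHet mice carried Cnp-Cre with 1 floxed Tardbp allele, and the 3 cKO mice carried Cnp-Cre with both alleles floxed. Cnp-Cre acts in Schwann cells and in oligodendrocytes, and the controls carried no Cre, so that the effect of Cre itself is not separated from that of the deletion in comparisons with them. Values are normalized TPM, a level per transcript length that can be compared between genes. Fold changes are on the scale log2(value + 0.5) with a standard error (SE) from limma, and values within each sentence are given in the order control ID-2743, ID-2746 and ID-2754, cHet ID-2742, ID-2745 and ID-2750, and cKO ID-2744, ID-2747 and ID-2748.

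Tardbp, the gene that encodes TDP-43, measured 185, 194 and 217 in control mice, 177, 179 and 186 in cHet mice and 103, 94.2 and 103 in cKO mice. The cKO libraries lay below all others, and the log2 fold change against control was -0.98 (adjusted p = 0.00219, limma). The genotype fields of 3 libraries differ from their titles (cHet ID-2742, cKO ID-2744 and cKO ID-2747), and groups follow the titles. The fields give cKO ID-2744 and ID-2747 as Cnp-Cre with 1 floxed allele, but their Tardbp levels lay with the other cKO library. The field of cHet ID-2742 is that of the controls. Its Tardbp level (177) lay with the other cHet libraries, but cHet and control overlapped, so that Tardbp cannot decide between its title and its field. Libraries also differed in tissue that is not nerve. The 15 skeletal muscle markers, all averaging 1 or more, summed to between 148 and 24604 in the control, 100.3 and 504 in the cHet and 397 and 12846 in the cKO. Control ID-2743, cKO ID-2748 and, less, cKO ID-2747 stood more than 1 above the median library on the log2 scale, at 5.74, 4.54 and 1.14. The 8 adipocyte markers were high in control ID-2743 and ID-2754 (2.36 and 2.79 above the median), and the 13 neuron markers in control ID-2746, cHet ID-2742 and cKO ID-2748 (3.62, 2.38 and 2.48). The muscle marker Myh2 was at 0 in some libraries. All 10 markers of myelinating Schwann cells averaged 1 or more. In bulk nerve, fewer cells of a type and less RNA per cell cannot be told apart.

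The mitochondrial genome has near-identical copies in the nucleus, and these bear on 4 of the 13 genes. On chromosome 1 the unprocessed pseudogenes Gm29216, Gm28661, Gm10925 and Gm28437 match mt-Co1, mt-Co2, mt-Atp6 and mt-Co3 over 482 of 483, 681 of 681, 678 of 678 and 783 of 783 aligned bases. The table gives them means of 8908, 9181, 3321 and 1496, so that reads of these genes could be assigned to either of 2 entries. Windows of 30 bases show how little there is to tell them apart, with the base that differs in capitals (A1066T, counted from the first base of the mt-Co1 transcript in GENCODE M21).
mt-Co1, bases 1063 to 1092: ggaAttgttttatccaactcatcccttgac
Gm29216: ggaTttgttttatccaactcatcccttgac
mt-Co2, bases 327 to 356: atatactgactatgaagacctatgctttga
Gm28661: atatactgactatgaagacctatgctttga
The copies of mt-Nd3, mt-Nd4 and mt-Nd4l were at or near 0 in every library, and for mt-Nd1, mt-Nd2, mt-Nd5, mt-Nd6, mt-Cytb and mt-Atp8 no copy of at least 99% identity was found. Results on mt-Co1, mt-Co2, mt-Co3 and mt-Atp6 are therefore also given with the copy added to the gene, weighted by length.

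Mitochondrial messages were the most abundant part of the chain. Their means over the 9 libraries ran from 2112 for mt-Nd5 to 13098 for mt-Co1, with a median of 7035, and the lowest lay above the highest nuclear member (Atp5b, 990). The 13 genes together made up 11.1, 9.0 and 6.07% of all normalized TPM in the control, 9.47, 8.21 and 8.33% in the cHet and 12.1, 10.5 and 12.4% in the cKO. Control ID-2743 lay within the cKO range. With the normalized TPM of the nuclear copies added unweighted, the shares were 13.34, 11.48 and 7.78% in the control, 11.4, 10.3 and 10.2% in the cHet and 14.4, 13.53 and 15% in the cKO. The cKO libraries then lay above the other 6, with cKO ID-2747 (13.53%) just above control ID-2743 (13.34%). For these 2 libraries the order rests on adding the copies unweighted and did not hold with weighting by length. The 84 nuclear members made up 2.63, 2.56 and 2.15% in the control, 2.33, 1.96 and 1.93% in the cHet and 2.07, 2.46 and 2.46% in the cKO, with all groups overlapping.

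**Figure D1:**
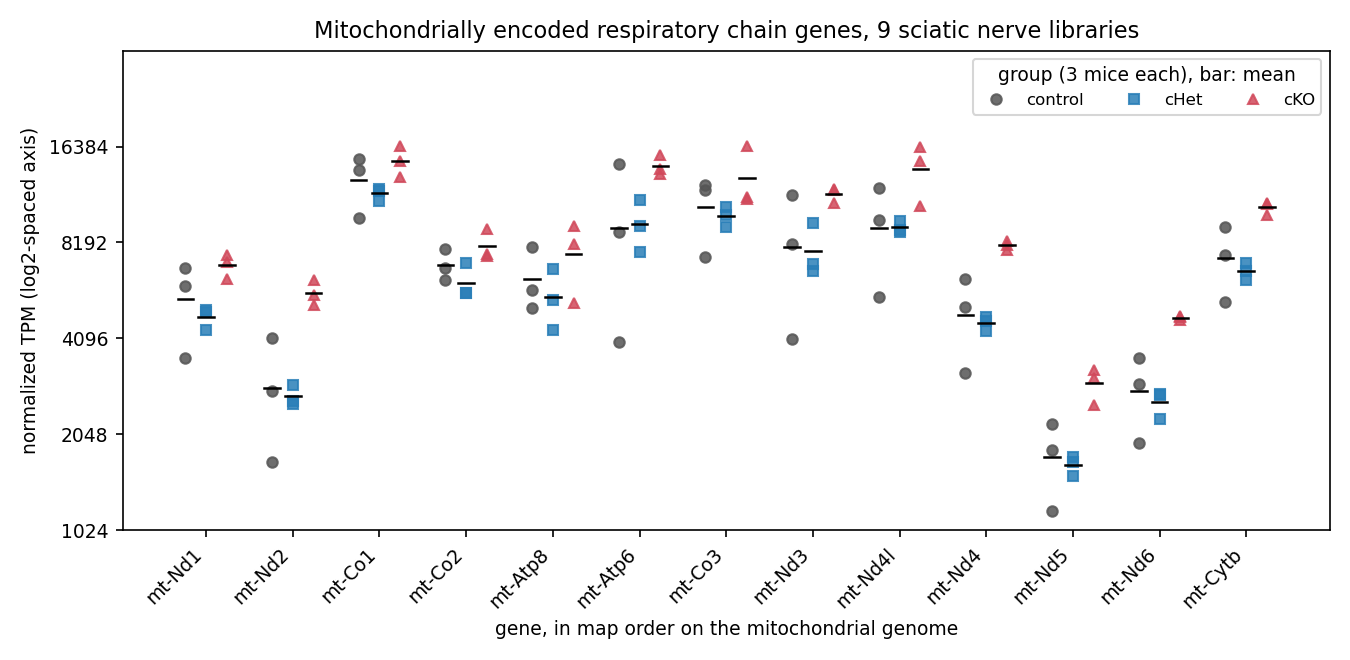
Level of each of the 13 mitochondrially encoded genes in normalized TPM on a log2-spaced axis, in map order, with 1 point per mouse (3 control, 3 cHet, 3 cKO) and a bar at the group mean. The highest of the 9 points is a cKO mouse for all 13 genes, and for mt-Nd2, mt-Nd4, mt-Nd5, mt-Nd6 and mt-Cytb all 3 cKO points lie above the control points; under quantile normalization the mean difference from control of mt-Nd1, mt-Co1, mt-Co2, mt-Co3 and mt-Atp8 is below 0.

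The question of the comparison of cKO with control was whether loss of TDP-43 changed the chain, and whether its 2 genomes moved alike. The mitochondrial members had a median log2 fold change of 0.66 and all 13 lay above 0, except that mt-Nd1, mt-Co1, mt-Co2, mt-Co3 and mt-Atp8 lay below 0 when libraries were quantile normalized. The nuclear members had a median of -0.03, beside -0.02 for all genes tested, with 36 of 84 above 0 (46.4% of all genes were) and 48 below (53.6% of all genes). No member of either genome passed an adjusted p of 0.05 (limma), where 1.57% of all tested genes did (235 genes, 0.932% higher and 0.633% lower). At an unadjusted p of 0.05, 5 of 13 mitochondrial members were higher, beside 6.45% of all genes, and 0 of 84 nuclear members were higher and 1 lower, beside 6.44% of all genes that were lower. In 5 of 13 mitochondrial genes all cKO libraries lay above all control libraries, beside 8.85% of all genes, and in 0 of 84 nuclear genes. For 1 of 84 nuclear genes and 0 of 13 mitochondrial genes they lay below, beside 8.57%. The adjusted p of the members does not show that they were equal in both groups. Without control ID-2754 the mitochondrial median was 0.33 and the nuclear median -0.14 (11 of 84 above 0), and without cKO ID-2744 the nuclear median was 0.10 (66 of 84 above 0). Without the 3 libraries high in muscle markers, which leaves 1 cKO library that is assumed to vary like the other groups, the medians were 0.94 and -0.18, and the part of muscle was not tested. The number of mitochondrial members with an unadjusted p under 0.05 moved from 5 to 8 of 13 without control ID-2743. It was 3 under quantile normalization, 1 with no filter on low values and 0 without the libraries high in neuron markers.

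mt-Nd2, a membrane subunit of complex I, had the largest difference of the 13. It measured 4108, 2810 and 1681 in control mice, 2930, 2602 and 2556 in cHet mice and 5624, 5226 and 6256 in cKO mice. Every cKO library lay above the other 6. The cKO mean of 5702 ± 519 (SD, n = 3) was 1.99 times the control mean of 2866 ± 1214 (SD, n = 3), with a log2 fold change of 1.08 (SE 0.29, 95% interval 0.42 to 1.747, adjusted p = 0.139, limma). The gene lies on chromosome M, 3914 to 4951 (GRCm38), on the plus strand.

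Genes for 3 further membrane subunits of complex I showed the same arrangement of libraries. mt-Nd4 measured 6269, 5151 and 3182 in control mice, 4771, 4654 and 4316 in cHet mice and 7742, 8055 and 8307 in cKO mice, a log2 fold change against control of 0.78 (SE 0.25, adjusted p = 0.211, limma). mt-Nd5 measured 2204, 1824 and 1179 in control mice, 1670, 1740 and 1512 in cHet mice and 3080, 2533 and 3267 in cKO mice, a change of 0.81 (SE 0.23, adjusted p = 0.158). In both, the cKO libraries lay above all others and control ID-2754 was the lowest of the 9. mt-Nd6, the only protein-coding gene on the other strand (chromosome M, 13552 to 14070, minus), measured 3553, 2940 and 1926 in control mice, 2746.6, 2717 and 2282 in cHet mice and 4816, 4774 and 4693 in cKO mice. Its log2 fold change was 0.81 (SE 0.22, adjusted p = 0.153). Whether reads were counted by strand is not given in the sources used here, so that reads of mt-Nd6 and of RNA from the strand opposite it cannot be told apart.

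The other complex I genes overlapped between cKO and control. mt-Nd1 measured 6809, 5990 and 3553 in control mice, 5028, 4957 and 4346 in cHet mice and 6312, 7493 and 7120 in cKO mice, with a log2 fold change of 0.41 (95% interval -0.17 to 0.98). mt-Nd3 ran from 4064 to 11567 in the control and from 10923 to 12065 in the cKO, and its log2 fold change was 0.68 (adjusted p = 0.498, limma). mt-Nd4l, whose message overlaps mt-Nd4, ran from 5537 to 12142 and from 10650 to 16305, with 0.66 (adjusted p = 0.445, limma). For these 3 genes control ID-2743 reached into the cKO range.

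mt-Cytb, the only mitochondrial subunit of complex III, measured 9133, 7501 and 5313 in control mice, 7079, 6653 and 6262 in cHet mice and 10030, 10878 and 10807 in cKO mice. The cKO libraries again lay above the rest, by a log2 fold change of 0.57 against control (SE 0.23, adjusted p = 0.348, limma).

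The 3 genes for the catalytic core of complex IV had small differences, and mt-Atp8 of complex V (0.25) lay among them. mt-Co1 measured 14941, 13797 and 9790 in control mice, 11914, 12023 and 11090 in cHet mice and 13160, 16416 and 14748 in cKO mice, with a log2 fold change of 0.22 (95% interval -0.34 to 0.78). mt-Co2 and mt-Co3 had 0.20 and 0.31, and for all 3 genes the control and cKO ranges overlapped. With the nuclear copies added the values were 0.31 for mt-Co1, 0.22 for mt-Co2 and 0.34 for mt-Co3. The median over the 3 complex IV genes was 0.22, against 0.78 over the 7 complex I genes.

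The ATP synthase genes mt-Atp6 and mt-Atp8 overlap on the genome. mt-Atp6 measured 14435, 8830 and 3990 in control mice, 11167, 7637 and 9235 in cHet mice and 13897, 13402 and 15444 in cKO mice, a log2 fold change of 0.83 with a SE of 0.43. Its copy Gm10925 ran from 735 to 7701 over the 9 libraries, and with the copy added the control stood at 15167, 14441 and 9032, the cKO at 15760, 21069 and 17340, and the change was 0.51. The cKO libraries lay above all control libraries only with the copy added. mt-Atp8 had 0.25, with cKO ID-2747 (5283) inside the control range.

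Ratios between messages within a library do not depend on how libraries were scaled. The ratio of mt-Nd2 to mt-Nd1, neighbours on the genome with no counted copy, was 0.603, 0.469 and 0.473 in the control, 0.583, 0.525 and 0.588 in the cHet and 0.891, 0.697 and 0.879 in the cKO. The ratio of mt-Nd4 to mt-Nd1 was 0.921, 0.860 and 0.895 in the control, 0.949, 0.939 and 0.993 in the cHet and 1.23, 1.07 and 1.17 in the cKO. That of mt-Nd6 to mt-Nd1 was 0.522, 0.491 and 0.542 in the control, 0.546, 0.548 and 0.525 in the cHet and 0.763, 0.637 and 0.659 in the cKO. For each of these pairs every cKO library lay above the other 6. The pairs were taken with the fold changes known. Of the complex I genes mt-Nd1 had the smallest change (0.41), and the 5 genes set over it had all cKO libraries above all control libraries. Separation of the ratios is therefore partly built in, and whether the messages differed by 1 common factor was not tested. Ratios of mt-Nd3, mt-Nd4l and mt-Atp8 to mt-Nd1 were not taken. The ratio of mt-Nd5 to mt-Nd1 overlapped, since cKO ID-2747 (0.338) lay within the cHet range of 0.332 to 0.351. That of mt-Cytb to mt-Nd1 overlapped as well, at 1.34, 1.25 and 1.495 in the control, 1.41, 1.34 and 1.44 in the cHet and 1.59, 1.45 and 1.52 in the cKO. The mean log2 level of the complex I genes minus that of the complex IV genes was -0.99, -1.21 and -1.52 in the control, -1.12, -1.16 and -1.15 in the cHet and -0.59, -1.07 and -0.56 in the cKO, with cKO ID-2747 within the control range. With copies added, this difference was -1.14, -1.60 and -1.20 in the cKO and between -1.94 and -1.58 in the control.

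**Figure D2:**
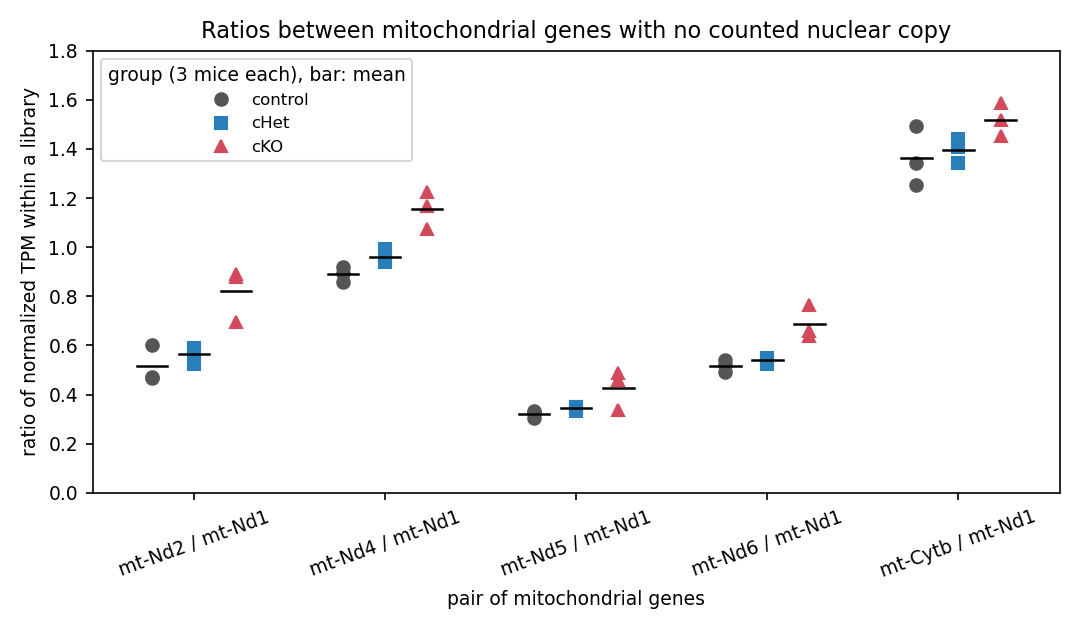
Ratio of normalized TPM of 5 mitochondrial genes to mt-Nd1 within each library, for genes without a counted nuclear copy, with 1 point per mouse and a bar at the group mean of 3. The 5 genes are those in which all cKO libraries lay above all control libraries. The cKO points lie above all others for mt-Nd2, mt-Nd4 and mt-Nd6, and cKO ID-2747 at 0.338 overlaps the cHet points for mt-Nd5, while the groups also overlap for mt-Cytb.

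The nuclear members of cKO and control lay close together in each complex. The medians were -0.03 for the 37 genes of complex I, 0.01 for the 4 of complex II, -0.04 for the 8 of complex III, 0.01 for the 18 of complex IV and -0.05 for the 17 of complex V. Atp5b, which encodes the catalytic beta subunit of ATP synthase and was the most abundant nuclear member, was the only one with separate groups. It measured 1326, 1066 and 1161 in control mice, 945, 795 and 792 in cHet mice and 837, 923 and 1063 in cKO mice, so that both groups with Cre lay below the control. The log2 fold change was -0.33 (SE 0.14, adjusted p = 0.363, limma) for cKO and -0.49 (SE 0.14, unadjusted p = 0.0073) for cHet. Outside the tissue isoforms, the next largest nuclear differences between cKO and control after Atp5b were 0.27 for Atp5g2 (c-ring subunit), 0.26 for Ndufb4 (accessory subunit of complex I) and 0.25 for Ndufv2 (the 24 kDa iron-sulfur subunit), and -0.26 for Ndufc1 (accessory subunit of complex I), none of which passed. The pseudogene Gm10175 matches Atp5g2 over 645 of 645 bases and had a mean of 259 against 39.6 for Atp5g2, so that reads of this gene could be assigned to either entry.

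**Figure D3:**
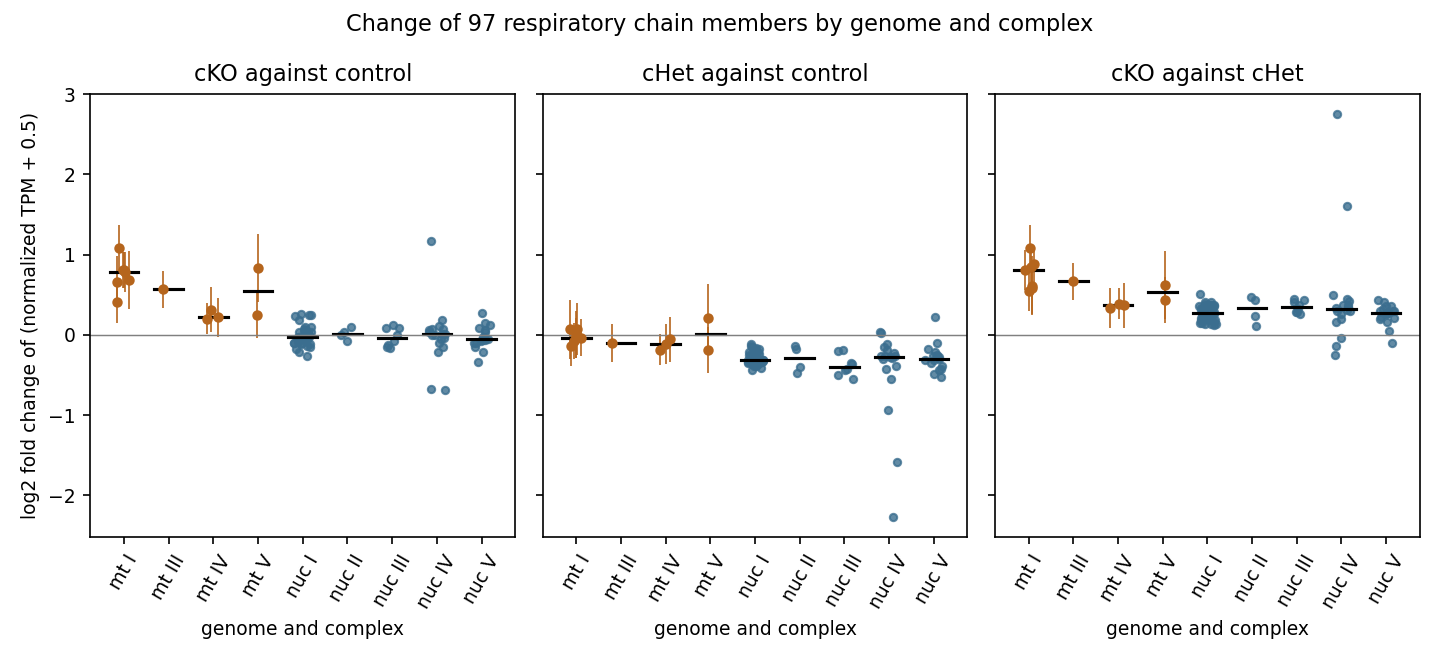
Log2 fold change of the 97 members in the 3 comparisons, by genome (mt, nuc) and complex, with 1 point per gene, the standard error from limma for the mitochondrial genes and a bar at the median of each class. Against control the mitochondrial points of the cKO lie above 0 (median 0.66) and the nuclear points around 0, while in the cHet the mitochondrial points lie around 0 and 81 of 84 nuclear points below it; under quantile normalization 5 mitochondrial points of the cKO lie below 0.

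Cox6c, a small subunit of complex IV and the most abundant member of that complex from the nucleus, measured 1007, 1075 and 786 in control mice, 937, 734 and 722 in cHet mice and 897, 1153 and 1033 in cKO mice. Its groups overlapped, with a log2 fold change between cKO and control of 0.11 (95% interval -0.27 to 0.49). Uqcrh, the hinge subunit and the most abundant nuclear member of complex III, measured 620, 652 and 487 in control mice, 569, 505 and 453 in cHet mice and 498, 770 and 612 in cKO mice, with 0.08 (95% interval -0.33 to 0.50). In both genes cKO ID-2747 was the highest of the 9 libraries. Ndufb4c, the highest complex I entry from the nucleus (mean 422), is a processed pseudogene on chromosome 15 that matches Ndufb4 over 390 of 390 bases, and Ndufb4 itself had the lowest mean of that complex (54.8), so that reads of Ndufb4 too could be assigned to either entry. Of the other extremes, complex II ran from Sdhd at 96.3 to Sdhc at 138, complex III began at Uqcrc1 at 54.0, and complex V ran from Atp5s at 20.1 to Atp5b at 990.

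In the cHet, compared with the same 3 control mice, it was the nuclear members that stood apart. The mitochondrial members had a median log2 fold change of -0.06, with 4 above 0 and 9 below (43.4% and 56.6% of all genes), and the nuclear members a median of -0.30, with 81 of 84 below 0. All genes tested had a median of -0.03. No gene passed the adjusted threshold here (limma, 0 of 15014, 0%), while 408 genes had an unadjusted p under 0.05. At that level 18 of 84 nuclear members were lower, beside 1.90% of all genes, and 0 higher, beside 0.813%. None of the 13 mitochondrial members reached it in either direction. For 24 of 84 nuclear members every cHet value was under every control value, beside 4.41% of all genes, and for 0 of 84 every cHet value was over, beside 2.69%. The number with an unadjusted p under 0.05 moved from 18 to 43 without control ID-2754, 28 without cHet ID-2742, 10 without control ID-2746, 6 without cHet ID-2745, 5 without control ID-2743 and 3 without cHet ID-2750, and to 27 without cKO ID-2747, which enters the fit through its spread. The 81 of 84 below 0 held when libraries were rescaled to the same sum, scaled by the median of ratios or quantile normalized, with medians between -0.29 and -0.20.

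All 4 subunits of complex II, the enzyme that also serves as succinate dehydrogenase, were below 0 in the cHet. Sdhd, a membrane anchor of that complex (chromosome 9, 50596357 to 50603812, minus strand), measured 115, 104 and 93.4 in control mice, 86.9, 73.5 and 75.0 in cHet mice and 92.5, 118 and 109 in cKO mice. The cHet values lay below the other 6, by a log2 fold change of -0.40 against control (SE 0.12, unadjusted p = 0.0101, limma). Sdhb, its iron-sulfur subunit, measured 163, 129 and 112.3 in control mice, 112.2, 88.6 and 87.1 in cHet mice and 111, 151 and 139 in cKO mice, with -0.48 (SE 0.17), and the highest cHet library was just under the lowest control.

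In complex III, Uqcrfs1, which encodes the Rieske iron-sulfur protein, had the largest difference in the cHet outside the tissue isoforms. It measured 148, 109 and 102 in control mice, 89.6, 76.4 and 76.0 in cHet mice and 85.8, 116 and 122 in cKO mice, a log2 fold change of -0.55 for cHet against control (SE 0.18, unadjusted p = 0.0132, limma). Cox5a of complex IV had -0.54 and overlapped, from 148 to 307 in the control and from 131 to 162 in the cHet. Cox4i1, the common form of a core accessory subunit of complex IV, measured 856, 925 and 885 in control mice, 725, 693 and 621 in cHet mice and 717, 1091 and 808 in cKO mice, with -0.39 (SE 0.16).

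The library with the lowest value was a cHet library for 70 of 84 nuclear members (cHet ID-2750 for 48, ID-2745 for 20 and ID-2742 for 2), against 28.0% of all genes tested. The highest was control ID-2743 for 31 and cKO ID-2747 for 39 of the 84, against 12.4% and 19.3% of all genes tested. Both are among the 3 libraries high in muscle markers, but the third, cKO ID-2748, was highest for only 2 (6.37% of all genes). Control ID-2746, which was not high in muscle markers, was highest for 10 (19.0% of all genes). The mean log2 level of the nuclear members was between 7.67 and 7.83 in the 3 libraries high in muscle markers and between 7.13 and 7.57 in the other 6. Without those 3 libraries the median of the nuclear members for cHet against control was -0.23, with 80 of 84 below 0. The part of muscle in the nuclear values was not tested.

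**Figure D4:**
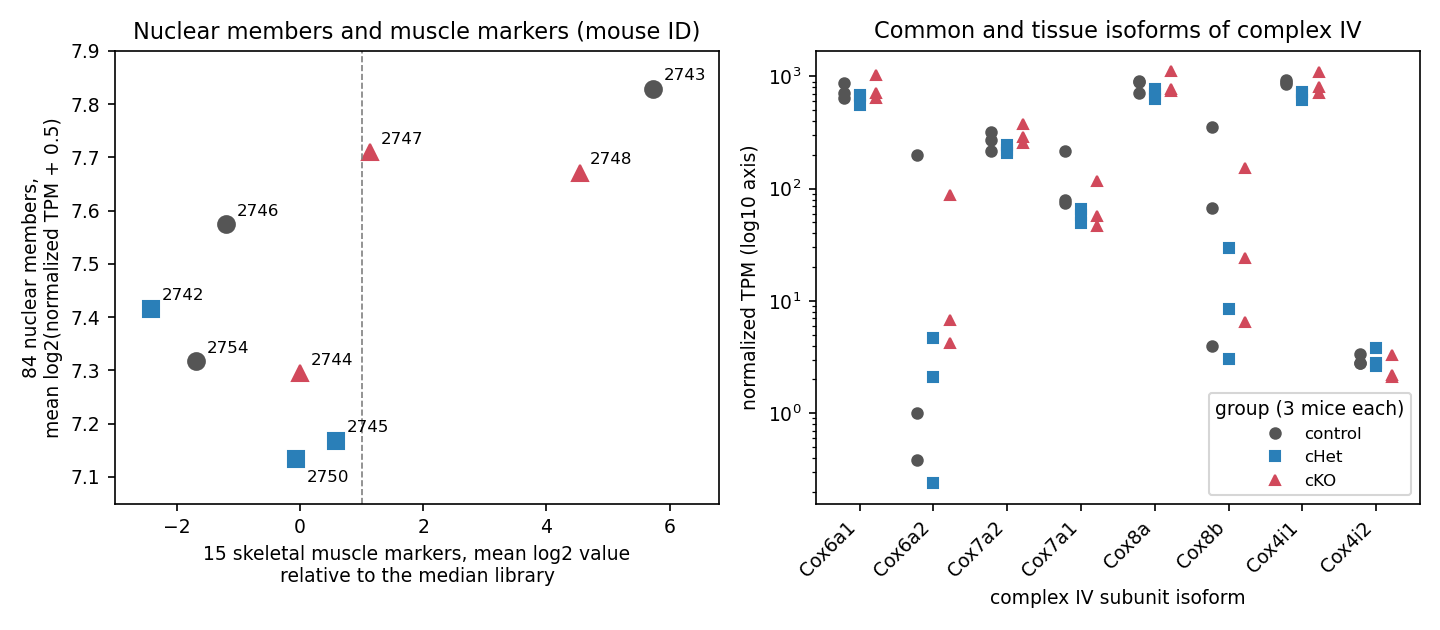
Left, mean log2(normalized TPM + 0.5) of the 84 nuclear members against the mean log2 level of 15 skeletal muscle markers relative to the median library, 1 point per mouse with its ID and a dashed line at 1; right, normalized TPM on a log10 axis of common and tissue isoforms of complex IV. The libraries right of the line (ID-2743, ID-2747 and ID-2748) have the 3 highest nuclear means, and Cox6a2 reaches 202 in ID-2743 while the other controls lie below 1.

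In cKO against cHet, a comparison that shares its mice with both of the others, members of both genomes lay above 0. The mitochondrial members had a median log2 fold change of 0.61 (13 of 13 above 0, but mt-Nd1, mt-Co1, mt-Co2, mt-Co3 and mt-Atp8 below 0 under quantile normalization) and the nuclear members a median of 0.29 (80 of 84 above 0), beside 0.02 for all genes, of which 52.6% were above and 47.4% below 0. No member passed (limma), while 1.71% of all genes did (0.932% higher and 0.773% lower), and the lowest adjusted p was 0.106, for mt-Nd6. At an unadjusted p of 0.05, 5 of 13 mitochondrial and 11 of 84 nuclear members were higher, beside 7.89% of all genes, and 0 lower, beside 6.69%. In 12 of 13 mitochondrial genes, all but mt-Atp8, every cKO library lay above every cHet library, and the same held for 9 of 84 nuclear genes, beside 13.3% of all genes. For 0 of 97 members did every cKO value lie under every cHet value, beside 11% of all genes. Without the 3 libraries high in muscle markers, the mitochondrial median was 0.66 and the nuclear median 0.06, with 57 of 84 above 0. That leaves cKO ID-2744 as the only cKO library, so that these medians describe 1 cKO mouse. The number of nuclear members with an unadjusted p under 0.05 was 39 without cKO ID-2744, 21 without cHet ID-2742, and 2 or 3 without cHet ID-2745, cHet ID-2750, cKO ID-2747 or cKO ID-2748.

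The 2 nuclear genes with the lowest p in that comparison came from complexes II and I. Sdhd, given above, had a log2 fold change of 0.43 (SE 0.12, adjusted p = 0.146, limma). Ndufa6, a LYR-motif accessory subunit of complex I, measured 357, 362 and 312 in control mice, 307, 279 and 271 in cHet mice and 340, 533 and 369 in cKO mice, with 0.51 for cKO against cHet (SE 0.16, adjusted p = 0.201). In Ndufa6 cKO ID-2747 stood far above the other 8 libraries. Ndufb5 of complex I measured 140, 131 and 129 in cHet mice and 149, 208 and 164 in cKO mice, with 0.37 (adjusted p = 0.255).

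The 2 genomes were also set against each other within each library, on the deposited scale. The mean log2 level of the mitochondrial members minus that of the nuclear members was 5.07, 4.998 and 4.61 in the control, 5.14, 5.21 and 5.20 in the cHet and 5.74, 5.30 and 5.43 in the cKO. Every cKO library lay above every cHet library. Every cHet library lay above every control library, with control ID-2743 (5.07) just under cHet ID-2742 (5.14). The nuclear mean counts the tissue isoforms, of which Cox6a2 and Cox8b measured 202 and 351 in control ID-2743 and 0.239 and 29.5 in cHet ID-2742. The order of these 2 libraries depends on the tissue isoforms. Over the other 78 nuclear members control ID-2743 lay above cHet ID-2742, so that control and cHet were not separate. The difference between the 2 medians of log2 fold change was 0.69 for cKO against control, 0.24 for cHet against control and 0.32 for cKO against cHet. Under quantile normalization the first was 0.30 and the last 0.019. Without the 3 libraries high in muscle markers, which leaves cKO ID-2744 as the only cKO library, they were 1.12 and 0.60. Leaving out control ID-2754, the library lowest in mitochondrial messages, lowered the value for cKO against control to 0.47 and the mitochondrial median from 0.66 to 0.33. In complex III, where mt-Cytb is the only mitochondrial gene, the groups kept this order. The mitochondrial minus nuclear difference was 4.97, 4.80 and 4.62 in the control, 4.998, 5.13 and 5.11 in the cHet and 5.596, 5.20 and 5.39 in the cKO. In complex I the cKO libraries lay above the other 6, while control ID-2743 lay above all cHet libraries, at 4.92, 4.63 and 4.19 in the control, 4.78, 4.89 and 4.86 in the cHet and 5.57, 5.04 and 5.39 in the cKO. In complex IV the groups overlapped, at 5.63, 6.30 and 5.96 in the control, 6.20, 6.42 and 6.32 in the cHet and 6.49, 6.35 and 5.82 in the cKO.

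**Figure D5:**
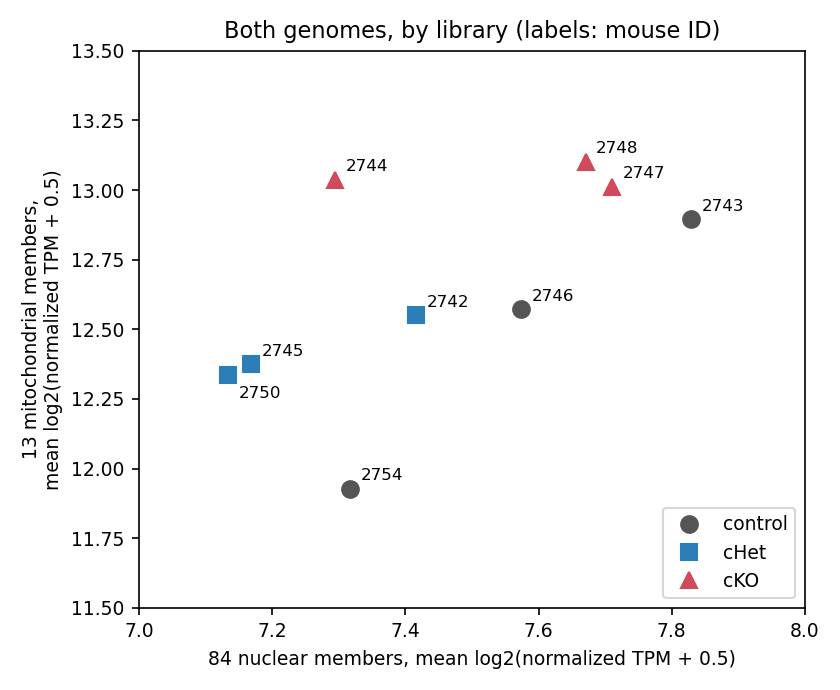
Mean log2(normalized TPM + 0.5) of the 13 mitochondrial members against that of the 84 nuclear members, 1 point per mouse with its ID. The cKO points lie highest on the mitochondrial axis, between 13.01 and 13.10, over a range of nuclear values from 7.29 to 7.71, and control ID-2754 lies lowest at 11.93; under quantile normalization 5 of the 13 genes are lower in cKO than in control.

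Complex IV also holds the tissue isoforms, subunits of which muscle, lung or testis use their own form. Cox6a2, the heart and skeletal muscle form of Cox6a1, measured 202, 0.995 and 0.384 in control mice, 0.239, 4.64 and 2.08 in cHet mice and 4.21, 6.82 and 87.3 in cKO mice. It was high in the 2 libraries with the most muscle marker RNA and made up 23.8% and 10.9% of Cox6a1 and Cox6a2 together there, against at most 0.690% in the other 7. Cox8b, another muscle and brown fat form, measured 351, 3.94 and 66.8 in control mice, 29.5, 3.01 and 8.41 in cHet mice and 6.45, 24.2 and 152 in cKO mice. It too was highest in control ID-2743 and cKO ID-2748. After these 2, its next highest value was in control ID-2754. That library and cHet ID-2742 had the highest sums of 4 brown fat markers (11.9 and 9.25, against at most 4.48 elsewhere). Only 1 of the 4, Cidea, averaged 1 or more, and it gave 9.68 of the sum in control ID-2754. Dio2 went the other way, at 0.428 in control ID-2754 and 1.37 in cKO ID-2744. The part of muscle or brown fat in these values was not tested. Cox7a1, the third muscle form, measured 219, 79.99 and 74.6 in control mice, 65.3, 57.7 and 49.0 in cHet mice and 47.0, 57.5 and 116 in cKO mice, so that it was well above 0 in libraries with little muscle RNA. Its cHet values were under all control values (log2 fold change -0.94, SE 0.45, unadjusted p = 0.0682, limma). Cox4i2, the lung form, had a mean of 2.86, Cox6b2, the testis form, ran from 15.2 to 30.9, and Ndufa4l2, a relative of the complex IV subunit Ndufa4, ran from 11.2 to 15.7. For none of these 3 were the groups separate. The muscle forms gave the widest log2 fold changes of the nuclear members, with SEs above 1 for Cox6a2 (1.17 in cKO against control, -1.59 in cHet against control and 2.76 in cKO against cHet) and Cox8b (-0.67, -2.27 and 1.60), and none passed. For Cox6a2 the mean level was lower in cKO (32.8) than in control (67.6), opposite in sign to its log2 fold change, since 1 control library holds nearly all of the control sum. At the other end in cKO against cHet were Cox4i2 at -0.25, Cox6b2 at -0.14 and Atp5s at -0.10. Cox7b2 and Cox8c were below the minimum.

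Promoters of nuclear members were searched for 2 motifs. RefSeq gave a promoter (GRCm38.p6, 250 bases before to 50 after the start) for 68 of the 84. The letters GCGCA and GCGC with any 1 base between them, a core site of NRF1, were present on either strand in 16 of 68 (23.5%), beside 4.78% of all 27025 promoters and 9.81% of the 11044 promoters matched to genes tested here. The letters CCGGAAG, an ETS site as bound by GABP, were present on either strand in 15 of 68 (22.1%), beside 9.12% and 17.0%. Either was in 27 of 68 (39.7%), beside 12.97% and 24.9%, and both in 4. The 2 motifs can share at most 1 base at their ends. A match of letters is a description of the promoter and no evidence of binding. Windows of 30 bases from members described above are shown, 5′ to 3′ on the strand of the gene, with the motif in capitals (CTTCCGG is the ETS site read on the other strand).
Sdhd, chr9:50603909-50603938, minus strand, NRF1: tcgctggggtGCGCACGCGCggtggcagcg
Ndufa6, chr15:82354249-82354278, minus strand, NRF1: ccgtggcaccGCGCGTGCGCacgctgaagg
Sdhb, chr4:140961266-140961295, plus strand, ETS: gctcggagaaaCCGGAAGcggccttccact
Uqcrh, chr4:116075062-116075091, minus strand, ETS: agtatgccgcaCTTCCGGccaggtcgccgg
The levels of the factors themselves were given by the same libraries. Nrf1 ran from 14.7 to 22.9 in the control and from 16.7 to 17.3 in the cKO, and Gabpa from 25.3 to 30.9 and from 26.3 to 32.5, and neither passed. The part of these factors in the levels of the members was not tested.

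Genes that build, feed or regulate the chain were taken from lists by function. Of all genes tested, 1.57% passed in cKO against control, 0% in cHet against control and 1.71% in cKO against cHet. A count of 0 in lists of this size is therefore close to the share of all genes. Of 46 assembly factors tested, 0 passed in any comparison, with medians of -0.00 for cKO against control and -0.16 for cHet against control. Of 15 genes for cytochrome c and coenzyme Q, 1 passed. Coq10b, which encodes a coenzyme Q binding protein, measured 17.5, 17.9 and 16.1 in control mice, 17.0, 17.5 and 18.6 in cHet mice and 26.9, 28.4 and 29.2 in cKO mice. It rose in the cKO by a log2 fold change of 0.70 against control (SE 0.09, adjusted p = 0.0096, limma) and 0.66 against cHet (adjusted p = 0.0117), and all cKO libraries lay well above the other 6. Coq4, a gene of coenzyme Q synthesis, had -0.63 against control (adjusted p = 0.0826, limma).

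Of 26 genes that copy and keep mitochondrial DNA and RNA, 0 passed, beside 1.57% of all genes in cKO against control and 1.71% in cKO against cHet. Their medians were 0.07 and 0.16 in these 2 comparisons. Twnk, the mitochondrial DNA helicase, had the lowest p of them and measured 8.70, 9.63 and 10.8 in control mice, 9.33, 10.8 and 9.95 in cHet mice and 13.9, 17.6 and 12.9 in cKO mice. The cKO libraries lay above the rest, by a log2 fold change of 0.58 against control (SE 0.14, adjusted p = 0.110, limma). Tfam, which packages mitochondrial DNA, ran from 28.0 to 45.8 in the control and from 33.6 to 42.6 in the cKO, and Polrmt, the mitochondrial RNA polymerase, from 9.36 to 12.7 and from 11.8 to 14.1. Of 10 regulators of mitochondrial genes, 20 genes of the tricarboxylic acid cycle and 17 of glycolysis, 0 passed in any comparison, beside at most 1.71% of all genes. The tricarboxylic acid cycle list, which contains the 4 complex II genes, had a median of -0.33 in cHet against control, close to the nuclear members. There 20 of 20 lay below 0, beside 56.6% of all genes. In cKO against control its median was -0.12. Glycolysis had medians of -0.21 and -0.14.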

How the data were processed

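RNA-seq libraries from 9 sciatic nerves were made with the TruSeq kit by the authors. They deposited 1 table of 36121 genes in normalized TPM, a signal scaled between libraries (sums of 934932 to 1158094), so that depth and counting error are unknown. Tools named in the submitters' processing notes are kallisto 0.44.0 and sleuth 0.30.0, with GRCm38 as the build. The sources used here do not give strandedness. The annotation spells mt-Cyb as mt-Cytb. Mitochondrial rRNAs and tRNAs were not analysed here.

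Genes with a mean of at least 1 (15014) were taken as log2(value + 0.5), which understates changes of low genes, and a single limma model (version 3.58.1, R 4.3.3, eBayes with trend) covered all 9 mice, with Benjamini-Hochberg adjustment over all genes and a threshold of 0.05. Each group holds 3 mice. The 3 comparisons share their mice. Copies of members were sought with BLAST 2.17.0 in GENCODE M21 transcripts (at least 99% identity over at least 80% of the copy and 200 bases). On simulated data with 200 of 15014 genes changed, the fit for cKO against control called 136, of which 7 were unchanged, and recovered 50% of changes of 1 and 79% of changes of 2 on the log2 scale. Named were all mitochondrial members, the nuclear members with the largest differences, the highest and lowest of each complex, the tissue isoforms and members of other lists that passed. Sdhd, Sdhb, Ndufb5, Cox4i1, Nrf1, Gabpa, Coq4, Twnk, Tfam and Polrmt were named after their values were seen. Members, lists and tests were chosen with earlier results of these data known. Alternatives were other pseudocounts, filters, scalings, designs, added copies and libraries left out.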

Additional observations from a re-analysis of the deposited data

How the results depend on the processing

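The count of called members stayed at 0 for both genomes in cKO against control and in cHet against control under all 26 alternatives, and for the nuclear members in cKO against cHet. In cKO against cHet 1 mitochondrial member was called when only the 2 groups compared were fitted, and between 0 and 3 when 1 library was left out, with 3 (mt-Nd2, mt-Nd5 and mt-Nd6) without control ID-2754. The difference between the mitochondrial and the nuclear median log2 fold change was 0.69 in cKO against control. It was 0.30 under quantile normalization, which gives every library the same set of values and so narrows differences among the most abundant genes, 1.12 without the 3 muscle-rich libraries, and 0.47 to 0.84 with 1 library left out. In cKO against cHet it was 0.32, 0.019 under quantile normalization, 0.60 without the 3 muscle-rich libraries and 0.20 to 0.47 with 1 left out. In cHet against control it was 0.24, and between 0.12 and 0.35 with 1 left out. Leaving out the 3 muscle-rich libraries leaves cKO ID-2744 as the only cKO library.

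Quantile normalization turned the sign of mt-Nd1 (-0.10), mt-Co1 (-0.28), mt-Co2 (-0.32), mt-Co3 (-0.092) and mt-Atp8 (-0.17) in cKO against control. In cKO against cHet it turned the same 5 genes, to -0.13, -0.28, -0.18, -0.0059 and -0.025, and Atp5b to -0.092. Atp5b was also at -0.0076 without the 3 muscle-rich libraries. Rescaling to the same sum moved the median of all genes in cKO against cHet from 0.02 to -0.12. The number of all genes called in cKO against control was 235, and 89 with no filter on low values, 50 with only the 2 groups compared, 50 to 179 with 1 library left out, 19 without the libraries high in adipocyte markers, 16 without those high in neuron markers and 0 without the muscle-rich libraries or those of differing genotype field. In cKO against cHet it was 256, and 96, 178, 55 to 274, 173, 14 and 0 under the same settings. In cHet against control it was 0, 3 with no filter and 1 with eBayes without a trend.

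Tardbp kept its direction. In cKO against control its adjusted p (limma) missed the threshold without the libraries of differing genotype field (log2 fold change -0.94, adjusted p = 0.358), those high in muscle (-0.998, adjusted p = 0.338), adipocyte (-0.95, adjusted p = 0.053) or neuron markers (-1.02, adjusted p = 0.0823). In cKO against cHet the limma values were -0.81 (adjusted p = 0.421), -0.81 (adjusted p = 0.317) and, for neuron markers, -0.89 (adjusted p = 0.117). These fits hold fewer libraries. With 1 library left out the change was -1.03 to -0.92 against control and -0.87 to -0.81 against cHet. No paired analysis was possible because the labels give each mouse its own ID and do not say which mice of the 3 groups form a set, and replicate numbers in accession order only name them. With unknown depth, no limit on detection can be given, and with 3 mice against 3 an exact permutation test cannot give a p below 0.1.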
